A study of Mus musculus with 87 samples.

Results

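Dlx1, Dlx2, Six3, Zic1, Pbx3, Nr2f2, Zfhx3 and Isl1 encode transcription factors that pattern the subpallium (the ventral forebrain) and neighbouring parts of the developing brain, and their RNA was followed through the adult brain and the pituitary gland. All probe sets of the array annotated to 1 of these 8 genes alone were taken, by current symbol or synonym, whatever their values, which gave 12 of the 12422 probe sets, for 8 of 8251 named genes. Of the 12, 10 passed a filter on low values (a mean over 55.4 in at least 1 group) that 8460 probe sets passed. A second probe set of Six3 (102901_at) and one of Nr2f2 (161792_f_at) did not, with intensities of -23.1 to 10.3 and of -18.7 to 30.8 over all arrays. Pbx3 has 3 probe sets that passed, and each other gene has 1.

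The 87 arrays (Affymetrix MG_U74Av2) held RNA of wild type male mice, 8 weeks old, of the inbred strains FVB/NJ, DBA/2J, C57BL/6J, C3H/HeJ, A/J and 129S6/SvEvTac. RNA of the amygdala (13 arrays) and the cingulate cortex (13 arrays) was frozen in RNALater and amplified in 2 rounds from 50 ng. RNA of the bed nucleus of the stria terminalis, a limbic nucleus beside the lateral ventricle (13 arrays), and of the hippocampus, the hypothalamus, the periaqueductal gray of the midbrain and the pituitary gland (12 arrays each) was labelled in 1 round from 10 µg. These 2 sets are not compared with each other. Of the 42 groups of strain and region, 39 had 2 arrays and 3 had 3. Each array held RNA of 1 mouse (hippocampus), of 1 or 2 mice (amygdala, cingulate cortex, hypothalamus, periaqueductal gray), of 2 or 3 (bed nucleus) or of 5 (pituitary gland), and a piece of tissue holds every cell type of the dissection.

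In the embryo, Dlx1 and Dlx2 are homeobox factors of the ganglionic eminences that promote the GABAergic fate and the migration of interneurons. Six3 sets up the anterior forebrain, Isl1 and Nr2f2 mark particular subpallial lineages, and Zic1, Pbx3 and Zfhx3 also act well outside the forebrain. Several of these factors remain expressed in adult neurons.

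Intensities are background-subtracted and linear, and values near or below 0 cannot be told from background, since no detection call was used here. Differences are given as log2(intensity + 16), with values below 0 set to 0, their standard error (SE) and p-values adjusted over all 8460 probe sets. They therefore understate the ratio of raw intensities where a group lies near 0. Each brain region labelled in 1 round was set against the mean of the other 3, the pituitary gland against the mean of these 4, and the amygdala against the cingulate cortex. A difference was called at adjusted p below 0.05 and at least 2-fold. Lower RNA in a tissue piece can stand for fewer cells of a type or for less RNA per cell, which cannot be told apart here.

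Array medians ran from 42.3 to 66.1, and the 48 pairs of replicate arrays had correlations of 0.953 to 0.992. Mice were used for more than 1 region in 79 arrays, and 4 arrays name the same animals as their replicate, so the p-values treat as separate some arrays that are not. Pituitary arrays under the C3H/HeJ label and those under the FVB/NJ label carried each other's strain profile (correlation with their own label -0.32 to -0.283 and with the other 0.857 to 0.892, over 200 probe sets, against 0.787 to 0.869 with their own label in the other 8 pituitary arrays). Pituitary arrays were therefore left out of strain comparisons. Marker lists were counted for 5 of the 7 tissues, and none was used for the bed nucleus or the cingulate cortex. At adjusted p below 0.05 with no fold minimum, 9 of 10 tested hippocampal genes were higher in the hippocampus (21.7% of all tested) and 12 of 13 hypothalamic genes in the hypothalamus (18.5%). The periaqueductal gray was higher for 9 of 13 midbrain genes (19.9%) and the pituitary gland for 10 of 11 pituitary genes (42.4%). Of 7 amygdala genes 3 were higher in the amygdala (17.4%) and 2 were lower (17.2%).

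Promoters of the genes called higher in the bed nucleus are printed because Dlx1 and Dlx2 lie side by side and moved together. Six3 and Zic1 shared the rise in the bed nucleus but, unlike the pair, were called lower in the hippocampus. They were not called in the hypothalamus or the periaqueductal gray, although their differences there had the same signs as those of the pair. Sequences are from RefSeq (GRCm38.p6), from 250 bases before to 50 after each start, 5′ to 3′ on the gene's strand. They cover chr2:71529195-71529494 (Dlx1, plus strand), chr2:71546705-71547004 (Dlx2, minus strand), chr17:85620584-85620883 (Six3, plus strand) and chr9:91365719-91366018 (Zic1, minus strand). The annotated genes begin further upstream for Dlx1 (71528113) and Six3 (85613608), so these sequences do not cover the first annotated base. Capitals mark GGGCGG and CCAAT on either strand.
Dlx1: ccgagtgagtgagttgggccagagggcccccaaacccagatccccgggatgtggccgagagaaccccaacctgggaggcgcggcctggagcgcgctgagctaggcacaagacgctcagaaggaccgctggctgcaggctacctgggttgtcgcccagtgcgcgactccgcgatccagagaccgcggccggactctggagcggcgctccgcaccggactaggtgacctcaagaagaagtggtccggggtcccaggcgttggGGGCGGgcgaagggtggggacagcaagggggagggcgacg
Dlx2: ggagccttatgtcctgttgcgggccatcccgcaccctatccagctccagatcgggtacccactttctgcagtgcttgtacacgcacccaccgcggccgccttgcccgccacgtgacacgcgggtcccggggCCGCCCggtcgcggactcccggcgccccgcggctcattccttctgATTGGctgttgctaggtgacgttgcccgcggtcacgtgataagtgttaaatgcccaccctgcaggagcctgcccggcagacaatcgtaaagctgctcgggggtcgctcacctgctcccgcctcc
Six3: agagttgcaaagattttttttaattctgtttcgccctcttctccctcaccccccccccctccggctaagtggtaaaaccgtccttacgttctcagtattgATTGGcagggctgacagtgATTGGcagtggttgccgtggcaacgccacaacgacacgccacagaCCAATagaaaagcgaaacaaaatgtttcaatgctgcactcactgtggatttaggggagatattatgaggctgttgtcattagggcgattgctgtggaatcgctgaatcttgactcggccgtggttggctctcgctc
Zic1: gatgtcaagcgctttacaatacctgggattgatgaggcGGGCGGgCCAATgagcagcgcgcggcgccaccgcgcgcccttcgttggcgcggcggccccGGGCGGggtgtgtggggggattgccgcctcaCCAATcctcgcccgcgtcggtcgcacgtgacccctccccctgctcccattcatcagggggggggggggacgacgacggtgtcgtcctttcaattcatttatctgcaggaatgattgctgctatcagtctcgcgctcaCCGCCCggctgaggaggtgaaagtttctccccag
Of the 8 genes 7 matched a promoter, and Pbx3 is named only. GGGCGG, the letters of a GC box, was in 35.66% of all 32851 promoters and occurred once in Dlx1, once in Dlx2, 3 times in Zic1 and 0 times in Six3. CCAAT was in 37.41% of promoters and occurred once in Dlx2, 3 times in Six3 and 2 times in Zic1, with 0 in Dlx1. TATAAA (13.62% of promoters) and TAATTA (5.29%), a core that homeodomain proteins bind, were in 0 of the 7. CANNTG, an E-box (72.31% of promoters), occurred 3 times in Dlx2 and once in Zic1, with 0 in Dlx1 and Six3. Both strands were searched, and no motif overlapped another among those in capitals. The 4 promoters held 69.3% (Dlx1), 66.3% (Dlx2), 50.0% (Six3) and 65.3% (Zic1) G and C, against a median of 52.7% over all promoters. Dlx1 and Dlx2 are transcribed towards each other, with 9.4 kb between their ends on chromosome 2.

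Every member gene was called in at least 1 region comparison. In the bed nucleus 4 of the 10 probe sets were called higher (Dlx1, Dlx2, Six3 and Zic1), against 0.591% of all tested, and 0 were called lower, against 0.213%. In the hypothalamus 3 were called higher (Dlx1, Dlx2 and Isl1), against 0.78%. The hippocampus had 7 called lower, against 1.63%, for Six3, Zic1, Pbx3, Zfhx3 and Isl1. In the periaqueductal gray Dlx1 and Dlx2 were called lower, against 0.922%, and all 3 Pbx3 probe sets higher, against 0.437%. The pituitary gland was called lower for Dlx1, Dlx2, Zic1 and Nr2f2, against 10.8%, and higher for Six3, against 9.81%. With 64 in place of 16 added before the log, the probe sets called were 2 in the bed nucleus, 3 in the hippocampus, 0 in the hypothalamus, 3 in the periaqueductal gray and 2 in the pituitary gland. The members were chosen with such patterns known, so these counts describe them and are no independent evidence.

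**Figure D1:**
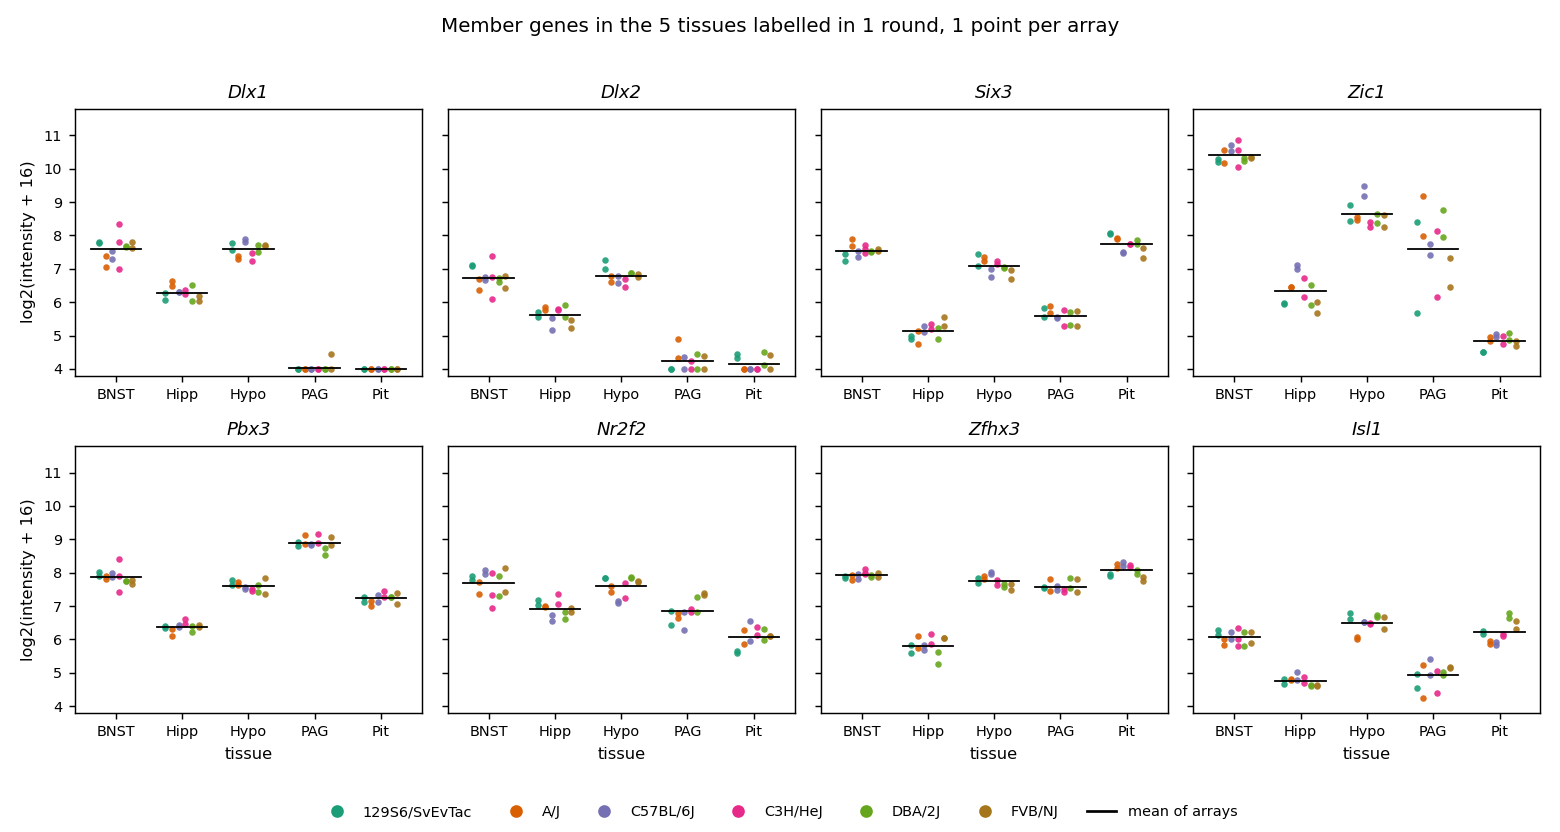
Intensity of the leading probe set of each gene on the y axis, as log2(intensity + 16), in every array of the 5 tissues labelled in 1 round, with colour for strain and a line at the mean of the arrays. Dlx1 and Dlx2 sit at the floor of the scale in the periaqueductal gray and the pituitary gland, Zic1 in the bed nucleus lies above every other array, and the leading Pbx3 probe set is highest in the periaqueductal gray.

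Dlx1 (98394_at) was present in the bed nucleus and the hypothalamus, lower in the hippocampus and at background in the other 2 tissues. Its intensity in the bed nucleus was 113 at the lowest, 186 at the median and 309 at the highest array, and in the hypothalamus it was 134, 180 and 223. Hippocampal arrays had 49.5, 62.0 and 82.6 (lowest, median, highest). The periaqueductal gray held -18.1, -7.41 and 5.94 and the pituitary gland -20.7, -10.6 and -6.64, and 11 of 12 and 12 of 12 of these arrays lay below 0. No array of the periaqueductal gray reached any other brain array of this labelling, whereas bed nucleus and hypothalamus overlapped. The difference from the other 3 brain regions was 1.62 ± 0.09 in the bed nucleus (SE, adjusted p = 4.71e-21) and 1.61 ± 0.09 in the hypothalamus (adjusted p = 1.2e-20). In the periaqueductal gray it was -3.11 ± 0.09 (adjusted p = 2.61e-33) and in the pituitary gland -2.37 ± 0.09 (adjusted p = 3.3e-30). Each of these had the same direction in all 6 strains. The hippocampus did not pass, at -0.12 with a 95% interval of -0.30 to 0.06, and its direction depended on the number added before the log, at 0.35 for 4 (adjusted p = 0.00916) and -0.30 for 64 (7.09e-05). Bed nucleus and hypothalamus differed by 0.005 (adjusted p = 0.984).

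Dlx2 (92332_at), the partner homeobox gene of the pair, followed the same order at its own probe set. It read 52.7, 88.8 and 153 in the bed nucleus (lowest, median, highest) and 72.4, 94.4 and 138 in the hypothalamus. It read 19.9, 34.0 and 44.2 in the hippocampus, -9.49, 1.03 and 14.0 in the periaqueductal gray and -9.18, -3.31 and 6.83 in the pituitary gland. Arrays of the midbrain region again lay below all other brain arrays, 6 of 12 of them below 0. The hypothalamus was higher by 1.27 ± 0.08 (adjusted p = 3.88e-19), the bed nucleus by 1.18 ± 0.08 (4.32e-18), and the periaqueductal gray stood at -2.15 ± 0.08 (5.56e-29). Hypothalamus and bed nucleus did not differ beyond their spread (adjusted p = 0.683). Over the 24 group means of the 4 brain regions Dlx1 and Dlx2 correlated at r = 0.982, a description over arrays that the pair shares.

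Enzymes and transporters of GABA neurons, which Dlx factors are known to promote, were measured beside them. All 3 of 3 tested (Gad1, Gad2 and Slc32a1) were higher in the bed nucleus at adjusted p below 0.05 with no fold minimum (7.52% of all tested) and 3 of 3 lower in the hippocampus (27.3%), at -1.16 for Slc32a1 and -1.10 for Gad2. In the hypothalamus, where Dlx1 and Dlx2 were also called higher, 0 of 3 were higher (18.5%) and 0 lower (share of all tested not given). Their median difference there was 0.02, against 0.04 over all tested. In the periaqueductal gray 2 of 3 were higher (19.9%), although Dlx1 and Dlx2 were at background there. Summed over the 3 genes, intensity was 2770 to 4396 in the periaqueductal gray and 2630 to 5043 in the bed nucleus, and 11.1 to 37 in the pituitary gland.

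**Figure D2:**
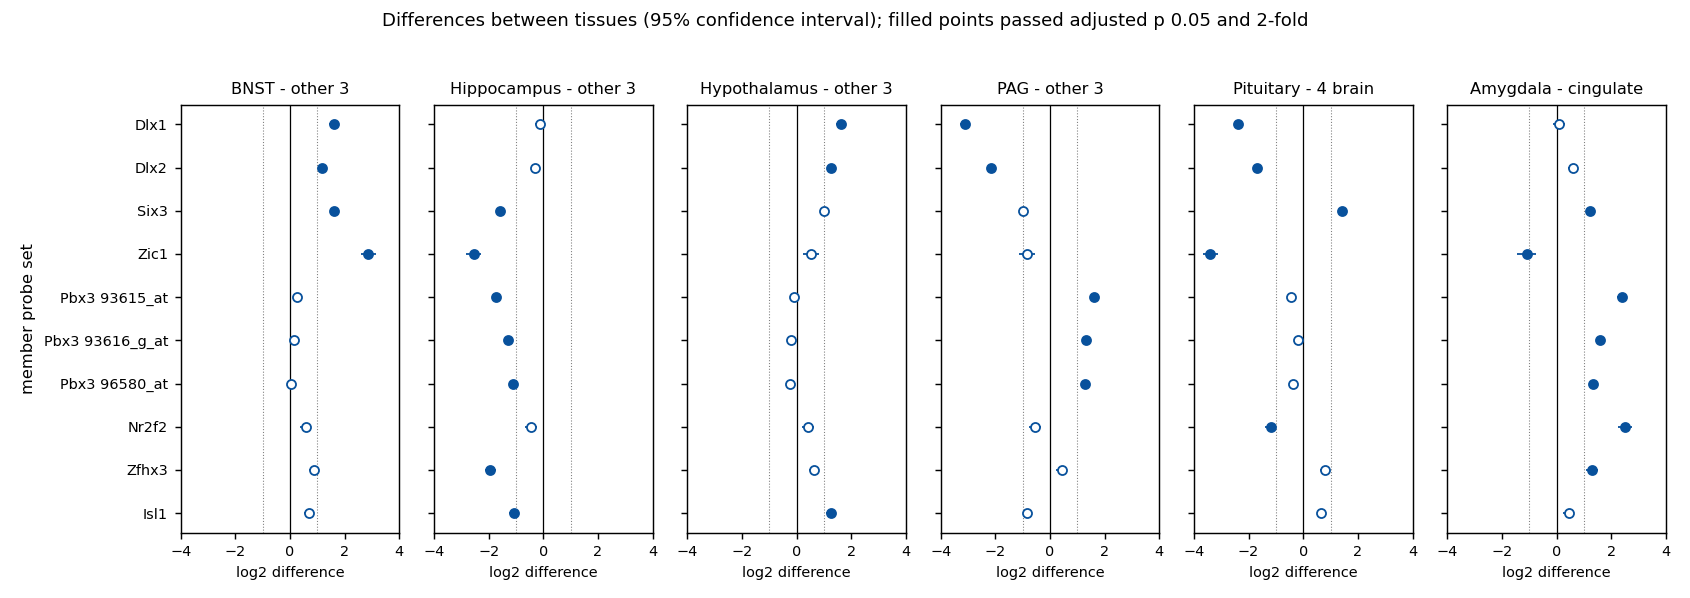
Log2 difference of each of the 10 probe sets in the 6 region comparisons, with bars for the 95% interval and filled points for calls at adjusted p below 0.05 and 2-fold. The bed nucleus and the hypothalamus are higher for Dlx1 and Dlx2 by 1.18 to 1.62, the periaqueductal gray is lower (-3.11 and -2.15), and all 3 Pbx3 probe sets are higher both in the periaqueductal gray and in the amygdala.

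Six3 (102900_at), a homeobox factor that represses Wnt signalling in the anterior neural plate, was highest in the pituitary gland. It read 144, 198 and 255 there (lowest, median, highest), 135, 170 and 221 in the bed nucleus and 87.1, 118 and 156 in the hypothalamus. The periaqueductal gray held 22.7, 33.3 and 43.0 and the hippocampus 10.7, 20.1 and 31.2. The 2 low regions stayed below every array of the other 3 tissues. Against the 4 brain regions the pituitary gland was higher by 1.41 ± 0.07 (adjusted p = 2.98e-25). Against the other 3 brain regions the bed nucleus was higher by 1.60 ± 0.07 (adjusted p = 1.79e-25) and the hippocampus differed by -1.60 ± 0.07 (adjusted p = 4.42e-26). The hypothalamus (0.99 ± 0.07) and the periaqueductal gray (-0.99 ± 0.07) passed the test and stopped just short of 2-fold. Pituitary gland and bed nucleus, the nearest neighbours in this order, differed by 0.20 ± 0.09 (adjusted p = 0.028).

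Zic1 (104169_at), a zinc finger factor of the dorsal neural tube and of the meninges, had the widest range of all members. Its intensity in the bed nucleus was 1050, 1272 and 1824 (lowest, median, highest), above every array of every other tissue labelled in 1 round. The hypothalamus had 286, 347 and 698, the periaqueductal gray 35.1, 215 and 562, the hippocampus 35.1, 63.6 and 123 and the pituitary gland 6.62, 12.9 and 17.5, below every brain array. The bed nucleus was higher by 2.87 ± 0.14 (adjusted p = 3.19e-23), a 7.3-fold difference on this scale, and the hippocampus lower at -2.55 ± 0.14 (adjusted p = 1.37e-21). Hypothalamus (0.53 ± 0.14) and periaqueductal gray (-0.85 ± 0.14) passed the test without reaching 2-fold, the second with a negative sign in 4 of 6 strains only. The hypothalamus difference no longer passed with scan day as a fixed block (0.39, adjusted p = 0.241). All 4 steps of the order bed nucleus, hypothalamus, periaqueductal gray, hippocampus, pituitary gland passed, with differences of 1.76, 1.03, 1.28 and 1.49.

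Genes of other tissues moved with the bed nucleus. Of 7 tested thalamus genes 7 were higher there (7.52% of all tested). Of these, 6 were higher by at least 2-fold (0.591%), with Prkcd at 2.49 and Rora at 2.08. Their summed intensity was 3040 to 6378 in the bed nucleus, 738.6 to 1050 in the hippocampus, 1630.5 to 1946 in the hypothalamus and 1289 to 2082 in the periaqueductal gray. None of the 7 had a median at or below 0 in any tissue. Of 5 choroid plexus genes 4 were higher (7.52%), with sums of 176.6 to 6115 over bed nucleus arrays. The meninges also express Zic1, and of 15 tested meningeal genes 1 was higher (7.52%) and 7 were lower (7.4%) in the bed nucleus. The bed nucleus array with the largest thalamus sum (C3H/HeJ, 6378) had the highest Zic1 (1824) and the lowest Dlx1 (113), and the array with the smallest (C3H/HeJ, 3040) had the lowest Zic1 (1050) and the highest Dlx1 (309). The array with the least choroid plexus signal (176.6) was that same array of 3040. The part of these tissues in the bed nucleus values was not tested.

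Isl1 (92515_at), a LIM homeobox factor of striatal, hypothalamic and pituitary lineages, was led by the hypothalamus. It read 48.7, 76.2 and 95.4 there (lowest, median, highest), 39.8, 49.1 and 65.9 in the bed nucleus and 41.2, 55.8 and 95.8 in the pituitary gland. It read 2.94, 15.9 and 27.0 in the periaqueductal gray and 8.19, 10.8 and 16.5 in the hippocampus. The 2 low regions lay wholly below the other 3 tissues, which overlapped among themselves. The hypothalamus was higher by 1.25 ± 0.08 (adjusted p = 3.64e-18) and the hippocampus was at -1.08 ± 0.08 (adjusted p = 1.62e-16). Smaller differences that passed without 2-fold were 0.68 ± 0.08 (bed nucleus), -0.84 ± 0.08 (periaqueductal gray) and 0.66 ± 0.08 (pituitary gland). The hypothalamus exceeded the pituitary gland by 0.28 (adjusted p = 0.013), while pituitary gland and bed nucleus did not differ beyond their spread (0.162).

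Pituitary genes were present in single arrays of every brain region. Their summed intensity was 55028 to 68689 in the pituitary gland and 721.5 to 8970.5 in the hypothalamus, and it reached 7040.8 in the periaqueductal gray, 4913.4 in the bed nucleus and 3344.5 in the hippocampus. Of the meningeal genes, 12 of 15 tested meningeal genes were higher in the hypothalamus (18.5% of all tested), with sums of 1944 to 11902 there. Both lists include genes that nervous tissue also expresses. Their part in the Isl1, Six3 and Zic1 values was not tested.

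Zfhx3 (92521_at), a zinc finger and homeobox factor known in the suprachiasmatic clock, was low in the hippocampus among the tissues labelled in 1 round. Its hippocampal intensity was 22.3, 41.1 and 55.1 (lowest, median, highest). It was 202, 228 and 262 in the bed nucleus, 164, 197 and 243 in the hypothalamus, 154, 171 and 213 in the periaqueductal gray and 200.3, 261 and 301 in the pituitary gland. Every hippocampal array lay below every array of the other 4 tissues. The hippocampus was at -1.94 ± 0.10 against the other 3 brain regions (adjusted p = 5.12e-24). The order pituitary gland, bed nucleus, hypothalamus, periaqueductal gray had no neighbours that differed (adjusted p of 0.202, 0.364 and 0.284), and the last of them exceeded the hippocampus by 1.77. Differences of 0.43 to 0.86 in the other 4 tissues passed the test.

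Nr2f2 (103052_r_at, COUP-TFII), an orphan nuclear receptor of caudal ganglionic eminence interneurons and of veins, varied least across the 4 brain regions. It read 108, 203 and 265 in the bed nucleus, 120, 192 and 220 in the hypothalamus, 78.6, 108 and 150 in the hippocampus, 61.8, 96.4 and 153 in the periaqueductal gray and 32.6, 52.8 and 77.2 in the pituitary gland (lowest, median, highest). Neighbouring regions overlapped throughout. The pituitary gland was lower at -1.19 ± 0.11 (adjusted p = 5.26e-15), and the brain regions differed from one another's mean by less than 2-fold, at 0.57 ± 0.11 (bed nucleus) and -0.54 ± 0.11 (periaqueductal gray). Bed nucleus and hypothalamus did not differ beyond their spread (adjusted p = 0.604), nor did hippocampus and periaqueductal gray (0.713). Of 9 endothelial genes 1 was lower in the bed nucleus (7.4% of all tested) and 1 lower in the hypothalamus (share of all tested not given). In the periaqueductal gray 1 was higher (19.9%). In the hippocampus 0 passed, where 21.7% of all tested were higher and 27.3% lower.

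Pbx3, a homeodomain partner of Hox and Meis proteins, was highest in the midbrain region, where Dlx1 and Dlx2 were at background. The leading probe set (93615_at) read 351, 449 and 555 in the periaqueductal gray (lowest, median, highest), 157, 216 and 326 in the bed nucleus and 149, 178 and 212 in the hypothalamus. It read 113, 138 and 160 in the pituitary gland and 53.1, 68.3 and 80.9 in the hippocampus. For all 3 probe sets every periaqueductal array lay above, and every hippocampal array below, all other brain arrays of this labelling. The periaqueductal gray was higher by 1.61 ± 0.07 (93615_at, adjusted p = 8.8e-25), 1.33 ± 0.07 (93616_g_at, 1.1e-21) and 1.29 ± 0.06 (96580_at, 1.77e-24). The hippocampus was lower by the same probe sets, at -1.74 ± 0.07, -1.30 ± 0.07 and -1.09 ± 0.06. The bed nucleus passed for 93615_at alone (0.24 ± 0.07, adjusted p = 0.016), with 0.16 (0.02 to 0.30) and 0.05 (-0.07 to 0.16) for the other two as differences with 95% intervals. The 93615_at difference no longer passed with 64 added (0.14, adjusted p = 0.133), with scan day as a fixed (0.154) or random block (0.0521) or on group means (0.0534). The 3 probe sets correlated at 0.97 to 0.983 with each other over the 24 group means.

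Arrays were scanned on 17 days, which held different sets of regions, so pairs of regions were also compared within a day. The bed nucleus shared 5 days with the periaqueductal gray and was higher on 5 of 5 for Dlx1 (2.83 to 4.34), Zic1 (1.47 to 3.28), Six3 (1.81 to 2.38) and Zfhx3 (0.10 to 0.49). It was lower than the periaqueductal gray on 5 of 5 for Pbx3 at 93615_at (-1.14 to -0.57). The hippocampus shared 3 days with the hypothalamus and was lower on 3 of 3 for Dlx1 (-1.48 to -0.68), Zic1 (-2.58 to -2.03), Zfhx3 (-2.12 to -1.61) and Isl1 (-1.88 to -1.46). For Nr2f2 the bed nucleus was higher than the periaqueductal gray on 4 of 5 days (-0.01 to 1.28). The hippocampus was lower than the hypothalamus for Nr2f2 on 2 of 3 days (-0.67 to 0.03). Other pairs shared at most 2 days, and the hippocampus and the periaqueductal gray shared none. On its single day with the periaqueductal gray the hypothalamus was lower for Zic1 (-0.32, against 1.03 over all arrays) and Zfhx3 (-0.13, against 0.17). The amygdala was higher than the cingulate cortex on 4 of 4 days for Nr2f2 (2.22 to 2.50), Pbx3 at 93615_at (2.04 to 2.71), Six3, Zfhx3 and Dlx2. It was lower on 4 of 4 days for Zic1, and higher on 3 of 4 for Dlx1 and 2 of 4 for Isl1.

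The amygdala and the cingulate cortex, amplified in 2 rounds, differed most in Nr2f2 and Pbx3. In the amygdala 6 of the 10 probe sets were called higher, against 0.745% of all tested, and Zic1 was called lower, against 0.863%. With 64 added these 7 calls became 3. Nr2f2 had 234, 489 and 634 in the amygdala (lowest, median, highest), against 19.8, 62.2 and 116 in the cingulate cortex. Pbx3 at 93615_at had 645, 1026 and 1619 in the amygdala, against 117, 177 and 251 in the cingulate cortex. No amygdala array of either gene came down to a cingulate array. The difference was 2.52 ± 0.13 for Nr2f2 (adjusted p = 2.17e-22) and 2.39 ± 0.09 for Pbx3 at 93615_at (2.57e-28), with 1.60 ± 0.09 (93616_g_at) and 1.33 ± 0.07 (96580_at) at the other Pbx3 probe sets. All had the same sign in 6 of 6 strains.

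Six3 and Zfhx3 were also separated without overlap. Six3 had 44.7, 61.8 and 95.8 in the amygdala, against 13.1, 16.7 and 29.9 in the cingulate cortex, a difference of 1.24 ± 0.08 (adjusted p = 1.19e-17). Zfhx3 had 41.1, 60.3 and 96.5 in the amygdala, against -4.20, 13.6 and 35.2 in the cingulate cortex, a difference of 1.29 ± 0.11 (adjusted p = 1.32e-13). Zic1 went the other way, with 81.5, 143 and 358 in the amygdala, against 270, 336 and 435 in the cingulate cortex, and it was lower in 6 of 6 strains at -1.10 ± 0.17 (adjusted p = 8.94e-07), although 1 C57BL/6J amygdala array (358) lay within the cingulate range.

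**Figure D3:**
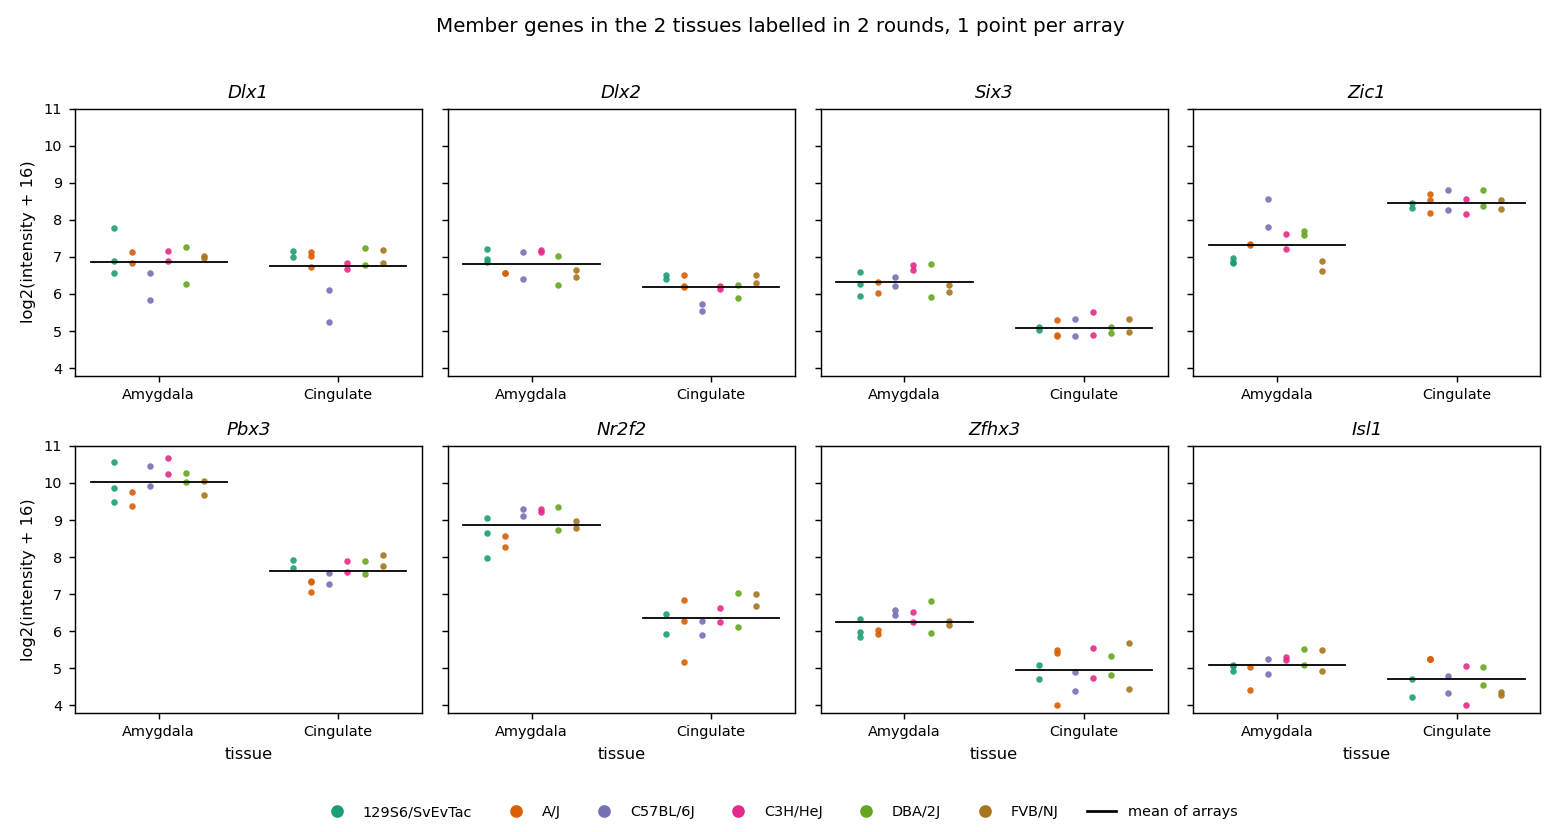
Intensity of the leading probe set of each gene as log2(intensity + 16) on the y axis, in each array of the amygdala (left) and the cingulate cortex (right), with colour for strain and a line at the mean of the arrays. Nr2f2, Pbx3, Six3 and Zfhx3 separate fully with the amygdala higher, Zic1 is lower in the amygdala, and Dlx1 overlaps, including its lowest values in C57BL/6J.

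The Dlx pair split in this comparison. Dlx2 had 60.0, 99.7 and 134 in the amygdala, against 30.7, 58.5 and 75.9 in the cingulate cortex, and passed at 0.61 ± 0.10 (adjusted p = 6.52e-07) with 6 of 6 strains higher. Dlx1 had 41.1, 103 and 204 in the amygdala, against 22.0, 99.0 and 135 in the cingulate cortex, and did not pass, at 0.09 with a 95% interval of -0.12 to 0.31. Isl1 was near the floor in both, at 5.28, 18.1 and 29.7 in the amygdala, against -7.85, 10.3 and 22.3 in the cingulate cortex. It passed at 0.44 ± 0.10 (adjusted p = 0.000309) with 5 of 6 strains higher.

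Genes of striatal projection neurons moved with the amygdala. All 6 of 6 tested were higher there (17.4% of all tested at adjusted p below 0.05), Penk by 2.32 and Tac1 by 1.73, with sums over the list of 4285 to 9338 in the amygdala, against 1497 to 2337 in the cingulate cortex. The 3 GABA neuron genes were also higher in the amygdala, Slc32a1 by 0.99, Gad2 by 0.72 and Gad1 by 0.56. Meningeal genes went with the cingulate cortex, 10 of 15 being lower in the amygdala (17.2%), with sums of 1483 to 4692 in the amygdala, against 3987 to 8119 in the cingulate cortex. Aldh1a2 of that list had a median at or below 0 in the amygdala. Of 9 endothelial genes 6 were lower in the amygdala (17.2%), where Nr2f2 was higher. Choroid plexus sums reached 5156 in the amygdala, against 2716 in the cingulate cortex, and pituitary gene sums were 548.3 to 10081.5 in the amygdala, against 425.7 to 11551.5 in the cingulate cortex. The part of these cells in the member values was not tested.

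Other transcription factors of the subpallium, taken from a list of 33 of which 18 were on the array and 12 passed the filter, were counted in each region. In the bed nucleus 6 were higher and 1 lower (7.52% and 7.4% of all tested), with Gbx2 at 1.82, Lhx8 at 1.33 and Lhx6 at 0.85, and Satb1 at -0.71. Gbx2 is also a thalamus gene and stands in that list. In the periaqueductal gray 0 were higher and 7 lower (20.7%), among them Lhx6 (-1.28), a factor of medial ganglionic eminence interneurons, and Dlx5 (-1.26), a further member of the Dlx family. The list's median difference was 0.32 in the bed nucleus and -0.34 in the periaqueductal gray, against -0.01 and -0.03 over all tested. In the amygdala 5 were higher and 2 lower (17.4% and 17.2%), with Lhx8 at 1.02, Dlx5 at 0.71 and Satb1 at -1.10. The hippocampus had 3 higher and 4 lower (21.7% and 27.3% of all tested) with a median of 0.02. The hypothalamus had 4 higher (18.5%) and 5 lower (share of all tested not given) with a median of -0.03. The pituitary gland had 1 higher and 6 lower (42.4% and 37.5%) with a median of -0.15. Passing the filter depends on the regions in which a gene is high, so these counts are no support.

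Paralogs of the members (10 of 17 on the array, 7 tested) were measured beside them. Nr2f1, the sister receptor of Nr2f2, was higher in the bed nucleus by 0.82 and in the amygdala by 0.77, but lower in the hypothalamus at -0.72 where Nr2f2 was higher. In the pituitary gland 5 paralogs were higher and 1 lower, against 42.4% and 37.5% of all tested. The differences were 2.22 for Six5, 2.10 for Six2, 2.02 for Six4 and -3.01 for Nr2f1. Six5 had a median below 0 in all 6 brain regions, against 34.6, 63.5 and 78.3 in the pituitary gland (lowest, median, highest), so it passed the filter through that tissue alone and its size depends on the 16 added. Factors of cortical and hippocampal excitatory neurons ran against the members in the hippocampus, where 9 of 11 were higher by at least 2-fold (2.38% of all tested), led by Neurod6 (3.98), Neurod2 (3.63) and Tbr1 (3.49), and 1 was lower. In the amygdala 8 of 11 were lower (17.2% of all tested), Egr1 at -1.31 and Tbr1 at -1.27.

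By likeness over the same 24 group means of the 4 brain regions, the gene closest to Dlx1 was Dlx2 (r = 0.982), followed by Dlx5 (0.978) and Calb1 (0.974). Dlx2 was followed by Dlx1, Calb1 (0.967) and Dlx5 (0.954). Isl1 had Sytl4 (0.966), Avp (0.964) and Oxt (0.943) nearest, and Six3 had Oxt (0.946), Cbln1 (0.943) and Cckar (0.932). Zic1 was nearest to Id4 (0.926), Cacna1g (0.913) and Six3 (0.904). The leading Pbx3 probe set was nearest to Adssl1 (0.970), Slc6a9 (0.966) and Mapk6 (0.957), Zfhx3 to Pcbd1 (0.959), Rasa4 (0.959) and Calb2 (0.954), and Nr2f2 to Sox2 (0.896), Ywhaq (0.880) and Cited2 (0.853). Among the leading probe sets of the members Dlx1 and Pbx3 were least alike (-0.495). These values describe 4 regions of shared animals and arrays.

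In the brain tissues labelled in 1 round the members' levels ranged more widely over regions than over strains. The range of the 4 brain region means was 3.55 for Dlx1, 2.57 for Dlx2, 2.40 for Six3, 4.06 for Zic1, 2.51 for Pbx3 (93615_at), 0.84 for Nr2f2, 2.10 for Zfhx3 and 1.75 for Isl1, all as log2. The range of the 6 strain means over the same arrays was 0.15 for Dlx1, 0.24 for Dlx2, 0.19 for Six3, 0.77 for Zic1, 0.19 for Pbx3, 0.35 for Nr2f2, 0.15 for Zfhx3 and 0.31 for Isl1. Over all tested probe sets the median ranges were 0.31 by region and 0.28 by strain, and 54.4% had the larger range by region. In the amygdala and cingulate cortex the strain range of Dlx1 (1.14) exceeded its region range (0.09). Nr2f2 had 0.61 by strain and 2.52 by region, and every member probe set except Dlx1 had the larger range by region. Over all tested probe sets the medians there were 0.147 by region and 0.436 by strain, and 12.033% had the larger range by region. A larger range by strain was therefore the usual case there and not particular to Dlx1. The range by region there rests on fewer means than the range by strain.

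**Figure D4:**
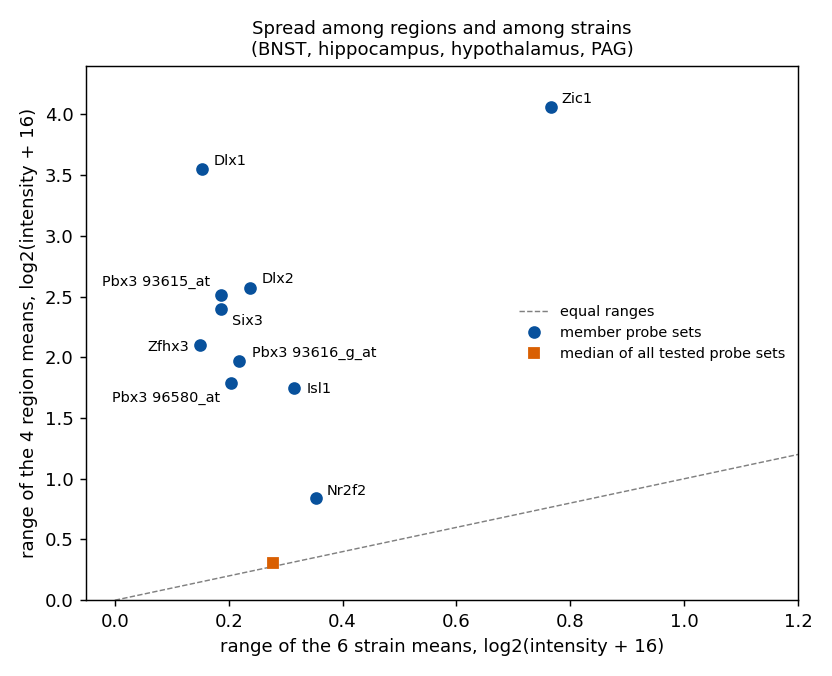
Range of the 6 strain means (x axis) against range of the 4 region means (y axis), both on the log2(intensity + 16) scale, for the 10 member probe sets in the brain regions labelled in 1 round, with the median of all tested probe sets as a square and a dashed line where both ranges are equal. Every member lies above the line, from a region range of 0.84 (Nr2f2) to 4.06 (Zic1).

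Few strain differences passed. Each strain was set against the mean of the other 5 over the 6 brain regions, and 5 of 60 comparisons of the 10 probe sets passed at adjusted p below 0.05. C57BL/6J passed for Dlx1 (-0.33 ± 0.09, adjusted p = 0.0049) and for Zic1 (0.51 ± 0.14, adjusted p = 0.00545), 2 of 10 against 19.4% of all tested. Zic1 in FVB/NJ passed at -0.42 ± 0.14 (adjusted p = 0.0332, 11.6%), Dlx2 in 129S6/SvEvTac at 0.21 ± 0.07 (0.0465, 15.4%) and Pbx3 (96580_at) in C3H/HeJ at 0.19 ± 0.06 (0.023, 8.71%). None passed in A/J (14.3%) or DBA/2J (11.4%). Per strain, 2 of 10, 1 of 10 or 0 of 10 is near or below the share of all probe sets. With scan day as a random block the calls in C57BL/6J (adjusted p = 0.0827 for Dlx1 and 0.13 for Zic1), FVB/NJ (0.156) and C3H/HeJ (0.158) were lost. Dlx2 in 129S6/SvEvTac was lost on leaving out any of 40 arrays, with adjusted p up to 0.119. Zic1 in FVB/NJ was lost without FVB/NJ replicate 1 of the amygdala or bed nucleus, or replicate 2 of the cingulate cortex, hippocampus, hypothalamus or periaqueductal gray (adjusted p up to 0.126).

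The C57BL/6J arrays stood out in different regions for the 2 genes, but a dependence of strain differences on region did not pass for either gene. Dlx1 was lowest in the C57BL/6J cingulate cortex (52.8 and 22.0, against 85.9 to 135 in the other 11 cingulate arrays), whereas the C57BL/6J hypothalamus had the highest Dlx1 there (223 and 207, against 134 to 201 in the others). Over the 4 tissues labelled in 1 round alone the C57BL/6J difference in Dlx1 was 0.03 (adjusted p = 0.903). Zic1 was highest in C57BL/6J in the hippocampus (123 and 110, against 35.1 to 89.3 in the others), in the hypothalamus (698 and 569, against 286 to 465) and in the amygdala (358 and 208, against 81.5 to 191). It was not higher in the C57BL/6J periaqueductal gray, where the difference was -0.02. Over the 6 brain regions 19.4% of all tested probe sets passed in C57BL/6J, in either direction. Higher there at adjusted p below 0.05 were 5 of 7 myelin genes (median 0.34), 3 of 9 endothelial and 3 of 7 astrocyte genes. Of 15 meningeal genes 2 were higher and 1 lower, and of 5 choroid plexus genes 0 were higher. Their part in the C57BL/6J values was not tested.

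**Figure D5:**
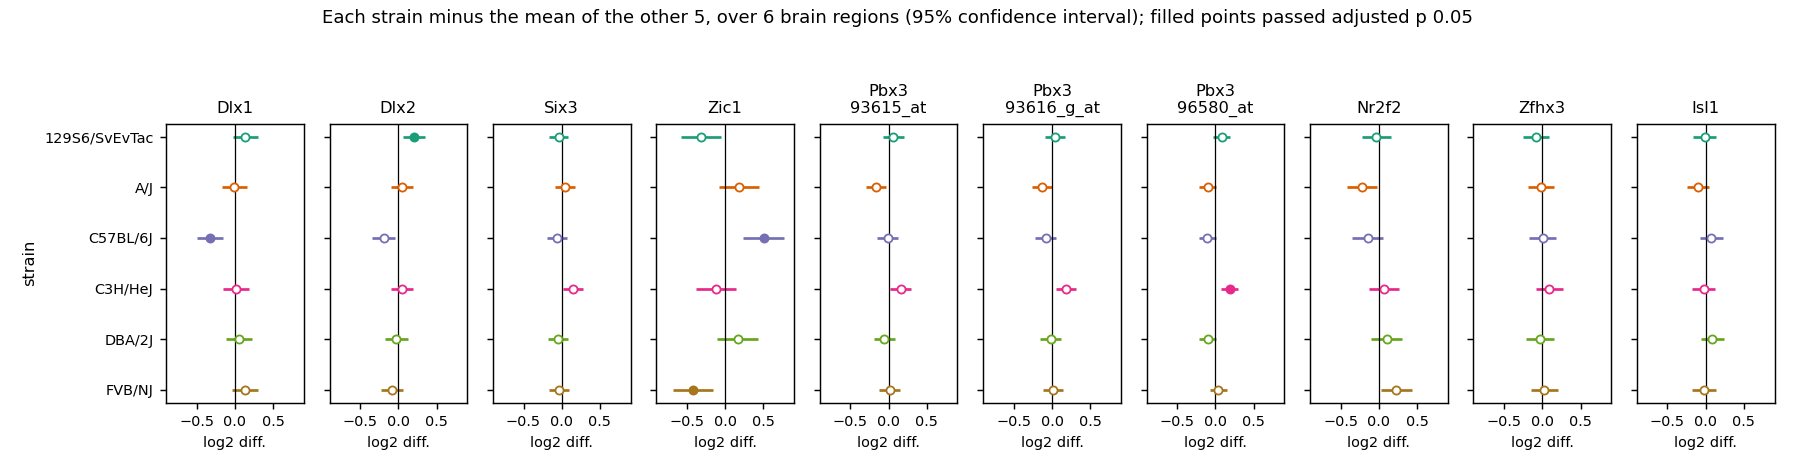
Log2 difference of each strain from the mean of the other 5 over 6 brain regions for the 10 probe sets, with 95% intervals and filled points for adjusted p below 0.05. Most intervals include 0, and the filled points are Dlx1 (-0.33) and Zic1 (0.51) in C57BL/6J, Zic1 in FVB/NJ (-0.42), Dlx2 in 129S6/SvEvTac (0.21) and Pbx3 at 96580_at in C3H/HeJ (0.19).

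Tests for any difference among the 6 strains passed for Zic1 (F = 5.46, adjusted p = 0.0023), Pbx3 at 96580_at (3.92, 0.016) and Dlx1 (3.19, 0.0385), 3 of 10 against 39.3% of all tested. Dlx1 no longer passed on leaving out any of 14 arrays (adjusted p up to 0.153) or with arrays of the same animals averaged (0.0755). Within the cingulate cortex 4 of 10 passed against 27.3%, namely Dlx1 (F = 7.70, adjusted p = 0.000343), Isl1 (4.61, 0.0103), Dlx2 (3.23, 0.0492) and Pbx3 at 93615_at (3.22, 0.0494). Without 1 C57BL/6J cingulate array (replicate 2) Dlx1 had adjusted p = 0.153, and Dlx2 was lost on leaving out any of 55 arrays (up to 0.277) and Pbx3 at 93615_at any of 67 (up to 0.174). Within the amygdala 4 of 10 passed against 33.5%, namely the 3 Pbx3 probe sets (96580_at with F = 5.60, adjusted p = 0.00265) and Zic1 (3.09, 0.0493). Zic1 was lost there on leaving out any of 72 arrays (adjusted p up to 0.272), Pbx3 at 93615_at without A/J replicate 1 or C3H/HeJ replicate 2 (up to 0.137) and 93616_g_at without either of these or A/J replicate 2 (up to 0.093). In the bed nucleus (11.1%), hippocampus (6.09%), hypothalamus (12.7%) and pituitary gland (14.4%) none passed. A dependence of strain differences on region passed for 0 of 10 over 6 regions (21.3% of all tested), with Dlx1 nearest (F = 2.13, adjusted p = 0.0511), and for 0 of 10 over the 4 tissues labelled in 1 round (1.96%).

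In the periaqueductal gray 1 of 10 passed against 8.82%, and it was Zic1 (F = 5.44, adjusted p = 0.00875), whose replicates were far apart. The test used a single spread estimated over all 42 groups, so this p-value does not measure the spread within the periaqueductal gray. The standard deviation of Zic1 over arrays, on the log2 scale, was 1.06 there, against 0.19 to 0.53 in the other tissues. The pairs were 145 and 71.2 in FVB/NJ, 231 and 421 in DBA/2J, 156 and 199 in C57BL/6J, 267 and 55.5 in C3H/HeJ, 236 and 562 in A/J and 35.1 and 324 in 129S6/SvEvTac. Strains therefore overlapped widely, and without the second A/J array the adjusted p was 0.0861. The arrays with the least Zic1 (35.1 in 129S6/SvEvTac, 55.5 in C3H/HeJ and 71.2 in FVB/NJ) had summed midbrain marker intensities of 3836, 3498 and 3068, the 3 highest of the 12 periaqueductal arrays, and the other 9 had 2332 to 2984. The part of the dissection in these values was not tested.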

How the data were processed

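The authors deposited a matrix of background-subtracted intensity values on a linear scale for 87 arrays, per the file headers, and 6.33% of the values lie below 0. Their software and scaling: not given in the sources used here. Per the labels' protocols, RNA was extracted with Trizol. Control probe sets (66 of 12488) were left out, and log2(intensity + 16) was fitted with limma 3.58.1 in R 4.3.3, one mean per group (42 groups) and Benjamini-Hochberg adjustment over the 8460 probe sets with at least 1 group mean above 55.4, the median over the whole matrix. Symbols came from the array annotation, 10817 of them brought up to date by gene identifier. A single symbol was given to 10833 probe sets, several to 396 and none to 1193.

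All member probe sets are described whatever their value, a gene being led by its probe set with the highest mean over arrays labelled in 1 round. The likeness rule takes the 3 genes of highest Pearson correlation over 24 group means, and each list names up to 4 genes of largest difference. The members and lists were chosen with earlier results of these data known. Lists are counted at adjusted p below 0.05, whatever the fold, unless 2-fold is stated. The lists compared were other subpallial factors, paralogs, GABA enzymes, striatal, cortical and thalamic genes, and marker genes of the tissues, choroid plexus, meninges, endothelium, myelin and astrocytes. Promoters are from RefSeq (GRCm38.p6). The fit was tested on simulated data.

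Alternatives were other pseudocounts (4 and 64), no filter, other scalings, a replicate block, scan day as a block, other sets of regions and each array left out. Scan day as a random block and the averaging of arrays from the same animals were chosen after seeing the data. Labels do not say that replicates came from separate cohorts, so p-values measure the spread between these arrays. Each probe set had a single spread, estimated over all 42 groups, so tests within a region do not use that region's spread alone.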

Additional observations from a re-analysis of the deposited data

How the results depend on the processing

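Recomputed values covered all region differences of the members, but only those strain differences that had passed. A strain difference could therefore not be counted as newly passing. Of 855 recomputed values 812 kept direction and side of adjusted p 0.05, whatever the fold. Of the rest 39 no longer passed adjusted p below 0.05, 1 newly passed and 3 reversed. Dlx1 in the hippocampus reversed at pseudocount 4 (0.35, adjusted p = 0.00916, against -0.12 as reported and -0.30 at 64), Dlx1 in C57BL/6J over the 4 brain regions labelled in 1 round (0.026, adjusted p = 0.903) and Pbx3 at 96580_at in the bed nucleus at pseudocount 64 (-0.011). Fold size depended on the pseudocount where a group lay near 0, and Dlx1 in the periaqueductal gray was -4.90 at 4 and -1.59 at 64.

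Pseudocount 64 left 2 probe sets called in the bed nucleus, 3 in the hippocampus, 0 in the hypothalamus, 3 in the periaqueductal gray, 2 in the pituitary gland and 3 in the amygdala, against 4, 7, 3, 5, 5 and 7. Strain calls were few and fragile. The 129S6/SvEvTac count of 1 became 0 at pseudocount 4, without the filter, with a replicate block, over the 4 regions, on group means and with same-animal arrays averaged, and was 0 to 2 on leaving out an array. In C57BL/6J the count of 2 became 1 over the 4 regions and on group means, and 0 with scan day as a fixed or random block. C3H/HeJ (1) had 0 with either scan-day block, over the 4 regions and on group means, and 0 to 2 on leaving out an array. Pbx3 at 96580_at was lost there without C3H/HeJ bed nucleus replicate 3, cingulate cortex or hippocampus replicate 1, or hypothalamus or periaqueductal gray replicate 2. FVB/NJ (1) had 0 in those same settings, without the filter and with same-animal arrays averaged, and 0 to 1 on leaving out an array. A/J (0) had 1 with the fixed and 2 with the random scan-day block, and 0 to 1 on leaving out an array.

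For tests among strains, the count of 3 was 1 over the 4 regions, on group means and with the random scan-day block, and up to 5 on leaving out an array. Zic1 passed in every setting run (at most adjusted p = 0.0447). Dlx1 and Pbx3 at 96580_at did not pass with scan day as a fixed block (0.37 and 0.233), nor Dlx1 at pseudocount 64 (0.0662), without the filter (0.0563) or over all 7 regions (0.0702). In the amygdala 4 became 2 under quantile normalization and 1 with the random block or at lowest on leaving out an array. In the cingulate cortex 4 became 1 at pseudocount 64 and 2 without the filter, without the 4 doubtful pituitary arrays, with same-animal arrays averaged, or at lowest on leaving out an array. The periaqueductal gray had 0 with the random block (Zic1 adjusted p = 0.0819) and 0 on leaving out an array. At pseudocount 64 the hypothalamus had 1 and the pituitary gland 2. The pituitary gland had 1 without the doubtful arrays and up to 1 on leaving out an array. The interaction over 6 regions had 1 with arrays scaled to the same median or quantile normalized and up to 2 on leaving out an array, and over 4 regions up to 1. The cause of these changes was not tested.

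Arrays numbered replicate 1 deviated little together across the regions of a strain (20 of 126 pairs over 0.1, median 0.011, from -0.384 to 0.263). Such correlations cannot show whether same-numbered arrays share animals, which was not tested. The replicate block lost Dlx2 in 129S6/SvEvTac (0.20, adjusted p = 0.0539), and Dlx2 in the cingulate cortex (0.0562) and Zic1 in the amygdala (0.0773) among strains. Scan days left 5 sets of groups sharing no day, so the fixed block could only be fitted with additive region and strain terms. Without the 4 doubtful pituitary arrays Pbx3 at 93616_g_at in the pituitary gland no longer passed (-0.18, adjusted p = 0.053).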
